A study of Mus musculus with 2 samples.

Results

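The genes described here are 31 genes of cholesterol synthesis and sterol regulation, taken by their gene names from 51826 genes listed for spinal cord. They comprise 9 genes that act before squalene, 10 that act after squalene, 7 that control SREBP, and 5 of sterol storage, lysosomal export and turnover. The mice were C57BL/6, taken on postnatal day 7, in 2 groups with 1 RNA-seq library each. One was wild type (WT), and the other carried the genotype labelled Olig1-Cre;Secisbp2l-floxed(Ex3) (cKO), in which a Cre expressed from Olig1 targets the oligodendrocyte lineage and exon 3 of Secisbp2l is flanked by loxP sites. Libraries were made from whole cord, so the targeted cells were pooled with all others, and the number of animals behind each library is not given in the labels. No difference could be tested with a single library on each side, and no p-value is given.

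Cholesterol is built from acetyl-CoA by way of mevalonate, isoprenoid diphosphates and squalene, and squalene is then closed into lanosterol and trimmed to cholesterol. The central nervous system makes its own cholesterol because circulating lipoproteins do not cross the blood-brain barrier, and the demand is high while oligodendrocytes lay down myelin. Transcription of the pathway is driven by the SREBP factors. SCAP escorts them from the endoplasmic reticulum to the Golgi, where proteases release them, and the INSIG proteins hold the complex back when sterols are plentiful.

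Estimated counts totalled 42875143 in WT and 55179026 in cKO. Levels are given either as CPM, counts scaled to a library of 1000000, which serve to compare a gene between libraries, or as the authors' TPM, which also account for transcript length and serve to compare genes with each other. Log2 ratios of cKO over WT come with 95% exact intervals (Clopper-Pearson), which reflect the error of counting and leave out differences between animals. Secisbp2l stood at 588 CPM in the WT library and 466 in the cKO library, a log2 ratio of -0.34 (interval -0.37 to -0.30); the deposited values do not isolate exon 3 and do not check its deletion. The libraries also differed in sex-linked genes. Xist stood at 820.1 CPM in the WT library and 0.236 in the cKO library, and the Y-linked Uty, Kdm5d, Eif2s3y and Ddx3y were at 0 counts in WT and between 19.6 and 77.6 CPM in cKO, so genotype and this difference cannot be told apart. The labels name a Cre for the cKO library only, so the Cre and the floxed gene cannot be told apart either. Olig1 itself stood at 387.9 CPM in the WT library and 175.5 in the cKO library (log2 ratio -1.14, interval -1.20 to -1.09).

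Of the 19 enzymes of cholesterol synthesis, 3 were lower in the cKO library by 1.5-fold or more and 12 were at least 20% lower, whereas 6 of the 7 genes that control SREBP stood close to equality. All 19 enzymes had a log2 ratio of CPM below 0 (that of Ggps1 was above 0 in TPM), and for 15 of them the interval lay wholly below 0. The intervals of Mvk, Pmvk, Ggps1 and Tm7sf2 include equality. The summed level of all 19 enzymes was 3228 CPM in the WT library and 2370.5 in the cKO library, 26.6% lower. Of all 31 genes, 25 had a ratio below 0, against 47.7% of the 15917 genes whose mean reached 1 CPM, called measured genes below. An interval wholly below 0 was found for 20 of the 31 members and for 18.4% of measured genes. The size rule used here, a difference of 1.5-fold or more whose interval does not reach equality, was met by 3 members in the lower direction (Idi1, Sqle and Lss) and by 0 in the higher direction. Over all measured genes that rule was met by 3.39% (lower) and 2.46% (higher). By a milder rule of the same form, 14 members were at least 20% lower and 0 at least 25% higher, against 7.82% and 6.22% of measured genes. The median log2 ratio was -0.31 over the members and 0.01 over all measured genes.

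All members were well expressed, with mean levels from 27.5 to 1084 CPM, and all 31 passed the filter on low values. Among the 8666 genes of a mean of at least 20 CPM, a background chosen after these levels were seen, 2.10% were lower and 1.20% higher by the 1.5-fold rule. In the same set 5.91% were lower and 4.48% higher by the milder rule, 44.6% had a ratio below 0, and 22.9% had an interval wholly below 0. Apart from the share of intervals below 0, which is larger, these shares are smaller than those over all measured genes. Together the members made up 0.441% of all WT counts and 0.347% of all cKO counts.

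**Figure D1:**
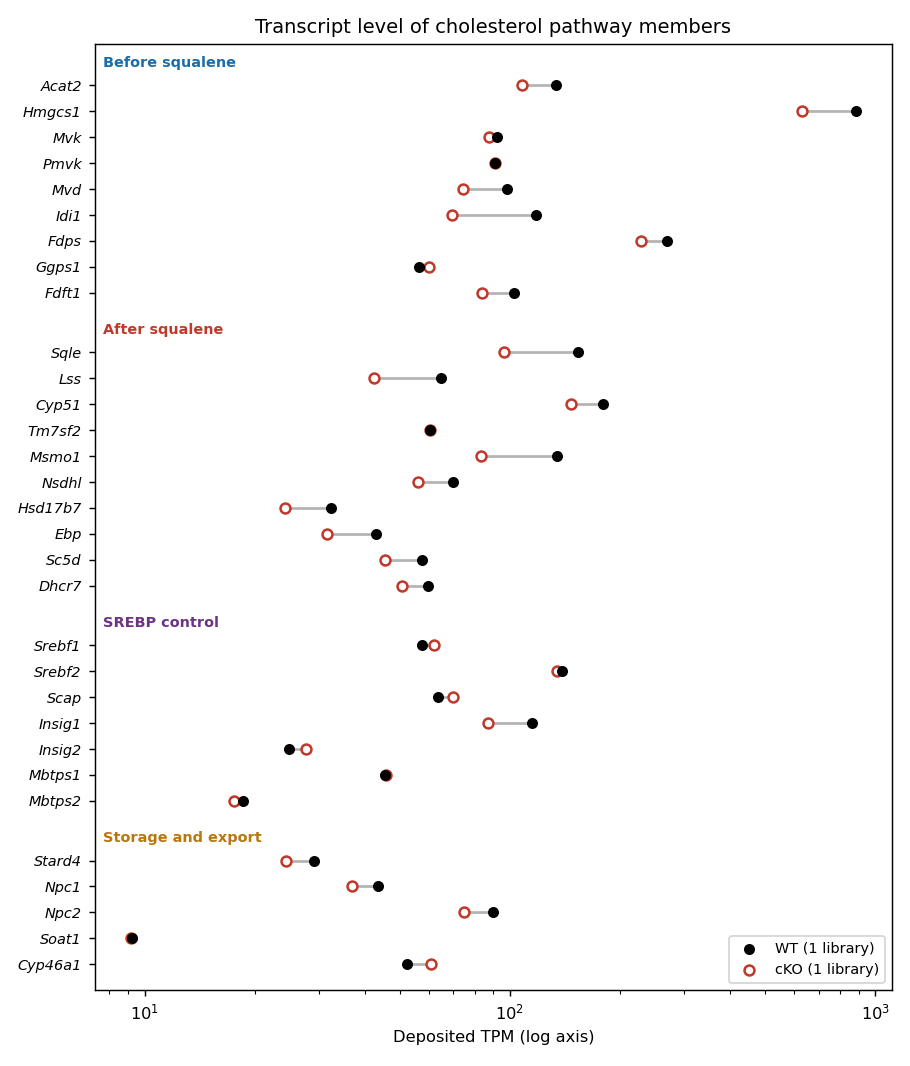
Deposited TPM (x axis, log scale) of each of the 31 members (y axis), grouped by pathway step, with 1 filled point for the WT library and 1 open point for the cKO library. The open point lies left of the filled one for most enzymes, by the widest margin for Idi1, Sqle and Msmo1, and on or near it for Pmvk, Tm7sf2 and Soat1.

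The steps before squalene differed unequally. Hmgcs1, which condenses acetoacetyl-CoA and acetyl-CoA into HMG-CoA, was the most abundant member in both libraries, at 886 TPM in WT and 630.5 TPM in cKO. In CPM it went from 1279 to 888, a log2 ratio of -0.53 (interval -0.55 to -0.50), or 1.44-fold lower, just short of the 1.5-fold limit. Hmgcs1 alone held most of the summed CPM of this step, which was 2092 in WT and 1537 in cKO, 26.5% lower. Acat2, the cytosolic thiolase that supplies acetoacetyl-CoA, stood at 122.3 CPM in the WT library and 95.8 in the cKO library (log2 ratio -0.35, interval -0.43 to -0.27).

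The kinases that follow mevalonate were near equality, and of the enzymes that act next Mvd was lower by the milder rule and Idi1 by both rules. Mvk, mevalonate kinase, stood at 63.6 CPM in the WT library and 59.4 in the cKO library (log2 ratio -0.10, interval -0.20 to 0.01). Pmvk, the next kinase, stood at 48.0 and 46.5 CPM (-0.05, interval -0.17 to 0.07). Both intervals include equality. Mvd, the decarboxylase that yields isopentenyl diphosphate, stood at 78.7 CPM in the WT library and 58.1 in the cKO library (-0.44, interval -0.54 to -0.34). Idi1 (chr13:8885501-8892451, plus strand, GRCm38), which converts isopentenyl diphosphate to its isomer, had the lowest ratio of all members. Its level was 154.8 CPM in the WT library and 89.7 in the cKO library, a log2 ratio of -0.79 (interval -0.86 to -0.71), or 1.73-fold lower, at percentile 1.97 of the ratios of measured genes. The intervals of Mvk and Pmvk do not overlap those of Mvd and Idi1.

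Further along, Fdps, farnesyl diphosphate synthase, was the runner-up in abundance at 269.6 TPM in WT and 229 TPM in cKO. In CPM it went from 149.97 to 132.5 (log2 ratio -0.18, interval -0.25 to -0.11). Ggps1, which diverts farnesyl diphosphate to geranylgeranyl diphosphate for protein prenylation and so lies on a branch, stood at 63.8 CPM in the WT library and 62.2 in the cKO library (-0.04, interval -0.14 to 0.07). Its ratio had the opposite sign on the authors' TPM (56.5 and 59.9 TPM). Fdft1, squalene synthase, which commits the pathway to sterols, stood at 130.9 and 104.8 CPM (-0.32, interval -0.40 to -0.25). The interval of the branch enzyme includes equality, and that of squalene synthase lies wholly below it without overlap. Over the 9 genes before squalene the median log2 ratio was -0.32, with 1 gene lower by the 1.5-fold rule and 4 by the milder one, which Fdft1 missed narrowly. Of measured genes 3.39% and 7.82% were lower by these rules.

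After squalene 8 of 10 genes were at least 20% lower by the milder rule, against 7.82% of measured genes. Quartiles of the log2 ratio were -0.48 and -0.35, against -0.44 and -0.10 before squalene. All 10 genes had a log2 ratio below 0, against 47.7% of measured genes, and the median was -0.41. By the 1.5-fold rule 2 were lower, against 3.39% of measured genes, and 9 intervals lay wholly below 0, against 18.4%. Summed CPM was 1137 in WT and 834 in cKO, 26.7% lower. Sqle (chr15:59315077-59331192, plus strand, GRCm38), squalene epoxidase, a rate-limiting enzyme of the sterol branch, stood at 190.1 CPM in the WT library and 116.2 in the cKO library, a log2 ratio of -0.71 (interval -0.78 to -0.64), or 1.64-fold lower. Lss (chr10:76531588-76557138, plus strand, GRCm38), lanosterol synthase, which closes the ring system, stood at 136.2 and 87.5 CPM (-0.64, interval -0.72 to -0.56), or 1.56-fold lower. These consecutive enzymes had the lowest ratios after that of Idi1, at percentiles 2.58 and 3.19 of measured genes. The interval of Lss crosses the 1.5-fold limit and that of Sqle does not.

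The enzymes that trim lanosterol lay mostly between -0.48 and -0.30. Cyp51, the lanosterol demethylase and the most abundant gene of this step by TPM, stood at 309.3 CPM in the WT library and 243.7 in the cKO library (log2 ratio -0.34, interval -0.39 to -0.29). Msmo1, the methylsterol oxidase, stood at 112.0 and 80.7 CPM (-0.47, interval -0.56 to -0.39). On the authors' TPM Msmo1 went from 134 to 83.6, a log2 ratio of -0.68 that would pass the 1.5-fold limit. Nsdhl and Hsd17b7, which act with Msmo1 to remove methyl groups, had ratios of -0.36 (67.5 and 52.7 CPM) and -0.45 (63.2 and 46.3 CPM). The 3 genes of this shared reaction sequence thus had overlapping intervals.

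Ebp, the sterol isomerase, stood at 32 CPM in the WT library and 23.0 in the cKO library (log2 ratio -0.48, interval -0.63 to -0.32). Sc5d, the desaturase of the next reaction, stood at 120.9 and 93.3 CPM (-0.37), and Dhcr7, which reduces the last ring double bond on the way to cholesterol, at 69.6 and 56.7 CPM (-0.30, interval -0.40 to -0.19). Tm7sf2, a sterol reductase, was the exception to the step at the level of the gene, though its transcripts differed in direction. It stood at 35.9 CPM in the WT library and 33.5 in the cKO library (-0.10, interval -0.24 to 0.04). Its exons overlap those of Vps51 on the same strand, and the summed locus had a ratio of 0.05 (interval -0.04 to 0.15). Nsdhl and Ebp are X-linked, as is Mbtps2 of the control genes. Without these 3 the median over members was -0.30.

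**Figure D2:**
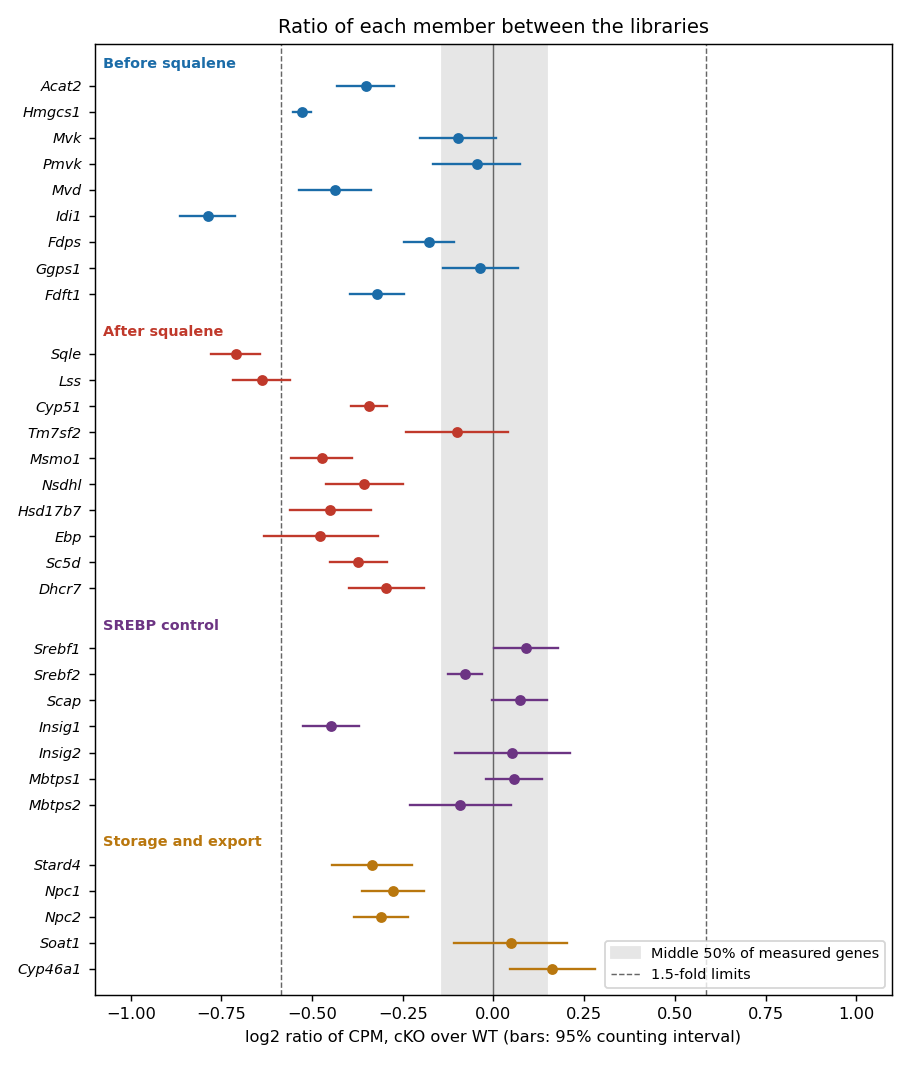
Log2 ratio of CPM, cKO over WT (x axis), for each of the 31 members (y axis) with its 95% counting interval as a bar; the grey band spans the quartiles of all measured genes, -0.14 to 0.15, and dashed lines mark 1.5-fold. Idi1, Sqle and Lss lie left of the dashed line, and 6 of the 7 SREBP control genes lie inside the grey band.

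Genes that control SREBP were at or near equality, with Insig1 as the exception. Srebf2, which encodes the SREBP that mainly drives cholesterol genes, stood at 309.1 CPM in the WT library and 292.9 in the cKO library (log2 ratio -0.08, interval -0.13 to -0.03). Srebf1, whose products mainly drive fatty acid genes, stood at 84.96 and 90.3 CPM (0.09, interval 0.001 to 0.18). Scap stood at 113.6 and 119.4 CPM (0.07, interval -0.004 to 0.15). These values differ by less than the milder rule asks, as do those of the genes for the Golgi proteases, Mbtps1 at 110.9 and 115.2 CPM (0.06) and Mbtps2 at 36.1 and 33.9 CPM (-0.09). By the 1.5-fold rule 0 of the 7 genes were called, where 3.39% of measured genes were lower and 2.46% higher. Their summed level was 815 CPM in the WT library and 778 in the cKO library, and their median ratio was 0.05. On FPKM that median was -0.03, of the opposite sign.

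The INSIG genes parted. Insig1, which is itself a target of SREBP, stood at 133.6 CPM in the WT library and 97.9 in the cKO library, a log2 ratio of -0.45 (interval -0.52 to -0.37). Insig2, whose product has the same retaining role, stood at 26.97 and 27.9 CPM (0.05, interval -0.11 to 0.21). Their intervals do not overlap. The ratio of Insig1 lay close to those of Mvd, Hsd17b7 and Msmo1, and the interval of Srebf2 lay wholly above that of Hmgcs1.

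Of the genes for storage, export and turnover, Npc1, Npc2 and Stard4 had intervals wholly below 0, and only Stard4 was lower by the milder rule. Among measured genes 18.4% had such an interval and 7.82% were lower by that rule. Npc1 and Npc2 encode the membrane and soluble proteins that pass cholesterol out of lysosomes. Npc1 stood at 100.8 CPM in the WT library and 83.2 in the cKO library (log2 ratio -0.28, interval -0.36 to -0.19). Npc2 stood at 131.4 and 105.98 CPM (-0.31, interval -0.39 to -0.23). This pair had overlapping intervals. Stard4, a soluble carrier of sterol between membranes, stood at 61.3 and 48.6 CPM (-0.34, interval -0.45 to -0.22).

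The remaining members of this group, Soat1 and Cyp46a1, had ratios above 0 and met neither rule. Soat1, which esterifies cholesterol for storage, was the least abundant member by TPM, at 9.25 in WT and 9.17 in cKO. In CPM it stood at 27.5 and 28.4 (log2 ratio 0.05, interval -0.11 to 0.20). Cyp46a1, the hydroxylase by which neurons dispose of cholesterol, had the highest ratio of all members, with 47.4 CPM in the WT library and 53.1 in the cKO library (0.16, interval 0.05 to 0.28). Beside it, 11 of 12 neuron markers had a ratio above 0, against 8332 of 15917 measured genes. The neuron markers had a median of 0.16 and a summed level of 6987 CPM in the WT library and 7908 in the cKO library. None of them was at 0 counts. The part of the neuron share in the ratio of Cyp46a1 was not tested.

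Cell type markers were set beside the members, because the cord was sequenced whole. In such samples fewer cells of a type and less RNA per cell cannot be told apart. Of 18 mature oligodendrocyte markers 17 were lower by the 1.5-fold rule, against 3.39% of measured genes. Their median was -0.96, and their summed level was 19382 CPM in the WT library and 9472 in the cKO library, 51.1% lower. Of 10 markers of newly formed oligodendrocytes 6 were lower, with a median of -0.63 and sums of 2042 and 1409 CPM. Precursor markers were near equality, with 0 of 10 past the rule, a median of -0.11 and sums of 1437 and 1417 CPM. Astrocyte markers, from another cell type that makes cholesterol, had 0 of 12 past the rule, a median of -0.06 and sums of 6989.6 and 6741 CPM. No marker of these lists had 0 counts in either library. The other marker lists had medians of 0.55 for red blood cells, -0.32 for meninges with fibroblasts, 0.08 for vessels (endothelium, pericyte), 0.01 for Schwann cells and -0.05 for microglia. The lowest member, Idi1, lay above the median of the mature oligodendrocyte markers and below that of the newly formed ones, while the median over the 19 enzymes, -0.36, lay between those of newly formed cells and precursors. The part of these cell types in the ratios of the members was not tested.

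**Figure D3:**
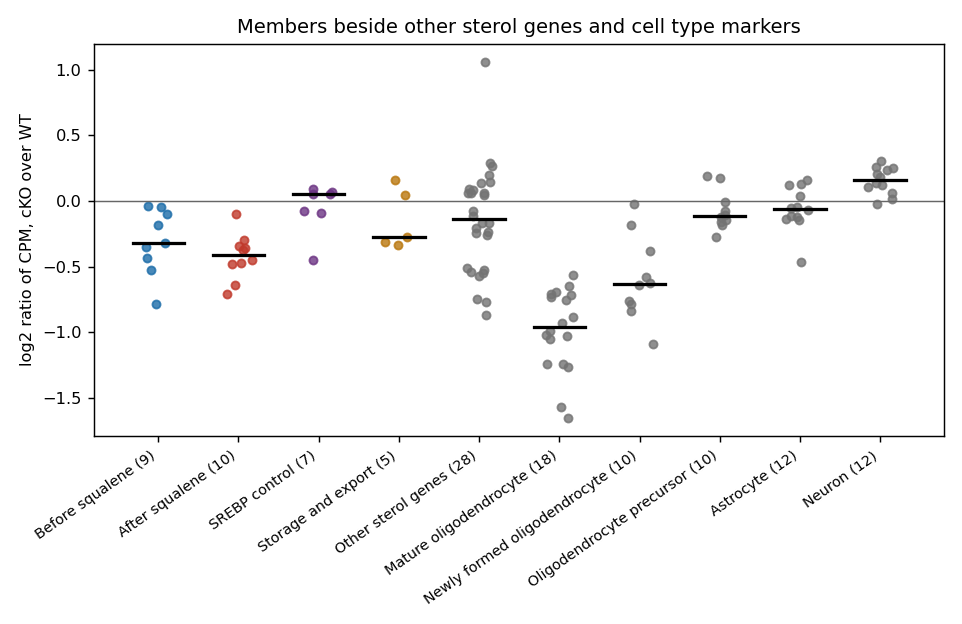
Log2 ratio of CPM, cKO over WT (y axis), for each measured gene of the 4 member groups, the other sterol genes and 5 cell type marker lists (x axis, number of genes in brackets); bars mark medians. The medians before and after squalene, -0.32 and -0.41, lie between those of newly formed oligodendrocytes (-0.63) and precursors (-0.11).

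A wider list of 30 sterol genes outside the 31 was also counted, of which 28 were measured. By the 1.5-fold rule 3 were lower and 1 higher, against 3.39% and 2.46% of measured genes. A ratio below 0 was found for 16 of the 28 and for 47.7% of measured genes, and the median of the 28 was -0.14. Cyp27a1, a sterol hydroxylase, was among the 3, with 9.86 CPM in the WT library and 5.40 in the cKO library (log2 ratio -0.87, interval -1.18 to -0.56). Acat1, the mitochondrial counterpart of the thiolase Acat2, stood at 239.3 and 249.1 CPM (0.06, interval 0.01 to 0.11). The thiolases therefore lay on opposite sides of equality. Acss2 and Aacs make acetyl-CoA and acetoacetyl-CoA in the cytosol, and their ratios were -0.55 and -0.51. Abca1 and Abcg1, exporters of cellular cholesterol, were at 0.06 and 0.26. Those last 4 genes were picked with their values known.

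The promoters of the members were searched for letters that SREBP and its partners are known to bind. RefSeq promoter sequences (GRCm38.p6, 250 bases before to 50 after a start) were matched by symbol for 26 of the 31 members, and those of Fdft1, Fdps, Npc1, Sqle and Stard4 were not matched. Both strands were searched, and a gene counted if any of its listed promoters held the motif, and the motifs were counted separately, overlaps included. CCAAT, the letters bound by NF-Y, was found for 22 of 26 members (84.6%) and for 4878 of 11444 measured genes (42.6%). It was found for 6 of 7 genes before squalene, 9 of 9 after squalene, 4 of 7 SREBP control genes and 3 of 3 of the last group. Acat2, Scap, Mbtps1 and Mbtps2 were the 4 without it. GGGCGG, the GC box bound by Sp factors, was found for 23 of 26 members and 67.7% of measured genes, and CACGTG, an E-box, for 5 of 26 and 11.3%. A form of the sterol regulatory element, TCACNCCAC, was found for 1 of 26 members, Hmgcs1, and for 1.41% of measured genes. Over all promoters of the table, 37.6% held CCAAT, 44.0% GGGCGG, 7.68% CACGTG and 1.26% TCACNCCAC. A match is a description of letters, not a site of binding.

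Stretches of 5 promoters, each before a RefSeq start, are shown 5′ to 3′ on the strand of the gene. CCAAT (or ATTGG, its reverse complement) and TCACNCCAC are in capitals. For Hmgcs1, Idi1 and Msmo1 the RefSeq start differs from the start of the authors' gene position. They were chosen because Hmgcs1 held both motifs, Idi1 had the lowest ratio, Mvk held the most CCAAT letters with a ratio near equality, Msmo1 stands for the steps after squalene, and Scap held neither motif. The first lies at chr13:119690161-119690320 on the plus strand, from 190 to 31 bases before the start.
Hmgcs1: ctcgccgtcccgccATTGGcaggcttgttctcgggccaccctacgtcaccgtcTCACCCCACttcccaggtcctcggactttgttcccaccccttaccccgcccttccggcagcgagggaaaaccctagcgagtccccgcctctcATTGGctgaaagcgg
The Idi1 stretch lies at chr13:8885456-8885605 on the plus strand and ends at the base before the start. The authors' position of Idi1 begins at 8885501, inside this stretch.
Idi1: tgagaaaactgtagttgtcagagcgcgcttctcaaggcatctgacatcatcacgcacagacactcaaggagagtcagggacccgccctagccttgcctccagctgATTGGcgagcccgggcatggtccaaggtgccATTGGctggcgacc
The Mvk stretch lies at chr5:114444089-114444238 on the plus strand, from 180 to 31 bases before the start.
Mvk: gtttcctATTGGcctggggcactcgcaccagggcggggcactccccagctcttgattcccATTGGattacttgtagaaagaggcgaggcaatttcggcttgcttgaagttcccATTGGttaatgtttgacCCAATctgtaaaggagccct
The Msmo1 stretch lies at chr8:64733609-64733758 on the minus strand, over the same distance. It falls wholly inside the authors' position of Msmo1, 64718139-64733792.
Msmo1: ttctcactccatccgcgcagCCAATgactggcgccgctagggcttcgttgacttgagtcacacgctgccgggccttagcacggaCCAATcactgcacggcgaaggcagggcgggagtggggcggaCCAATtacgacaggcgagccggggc
The Scap stretch lies at chr9:110333138-110333287 on the plus strand and ends at the base before a start.
Scap: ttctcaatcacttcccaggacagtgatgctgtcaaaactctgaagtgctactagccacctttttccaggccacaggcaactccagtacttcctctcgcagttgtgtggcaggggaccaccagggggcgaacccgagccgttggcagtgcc
In Hmgcs1 the sterol regulatory element began 137 bases before the start, between CCAAT letters that began at 176 and 45 bases. Mvk held CCAAT letters 5 times in its 300-base promoter, 4 of them in the stretch shown. Idi1 held them 2 times. How the number of motifs goes with the ratio over the 26 matched members was not tested.

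Counts of a gene were the sum over its transcripts, which the authors estimated. For 19 of the 31 members only 1 transcript reached 10% of the gene's counts, and it held between 93.6% and 100% of them. Among these were Hmgcs1-201 (100% in both libraries), Idi1-201 (99.0% and 99.2%) and Srebf2-201 (100%), so the division between transcripts has little or no part in their ratios. Of the other 12 members, Mvd is an example with little movement. The coding Mvd-201 held 44.9% of its counts in WT and 48.3% in cKO, with a log2 ratio of -0.33. The rest, 55.15% and 51.7%, lay on Mvd-202, annotated as nonsense-mediated decay, with a ratio of -0.53. For Lss, Lss-204 and Lss-207 are annotated as retained introns. They held 21.9% and 31.3% of its counts in WT, and 25.2% and 29.8% in cKO. Their log2 ratios were -0.43 and -0.71, and that of the coding Lss-201 was -0.82.

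For Fdps, Msmo1, Sqle, Tm7sf2 and Mbtps1 there were transcripts whose estimated shares moved by far more than the gene. Fdps-201 went from 96.5 to 47.1 CPM (log2 ratio -1.03) and Fdps-203 from 37.8 to 76.5 CPM (1.02), while the gene had a ratio of -0.18. Msmo1-201 held 78.6% of counts in WT and 54.9% in cKO, and Msmo1-202, annotated as a retained intron, 3.54% and 41.0%. Msmo1-206, a processed transcript, held 12.7% in WT and 0.02% in cKO. Sqle-201 had a ratio of -1.04 and Sqle-202 one of -0.25, around the gene's -0.71. For Tm7sf2, the coding Tm7sf2-201 had a ratio of -0.49, and the coding Tm7sf2-202 (-1.21) went from 49.1% to 22.8% of counts. The coding Tm7sf2-203 went from 1.82% to 13.9% of counts. Tm7sf2-208, annotated as nonsense-mediated decay, had 0 counts in WT and 335 in cKO. Mbtps1-206 went from 62.7% to 77.6% of counts (log2 ratio 0.36) and Mbtps1-207 from 21.9% to 13.7% (-0.62), around the gene's 0.06. Both are annotated as retained introns. In Srebf1, Srebf1-201 had a ratio of -0.58, Srebf1-203 one of 0.16 and Srebf1-207 one of 0.20, around the gene's 0.09. Ggps1-208 had a ratio of -0.49 and Ggps1-201 one of 0.05, around the gene's -0.04. These transcripts share exons, and no library was replicated, so a shift in how the estimate divides reads and a shift in splicing cannot be told apart.

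**Figure D4:**
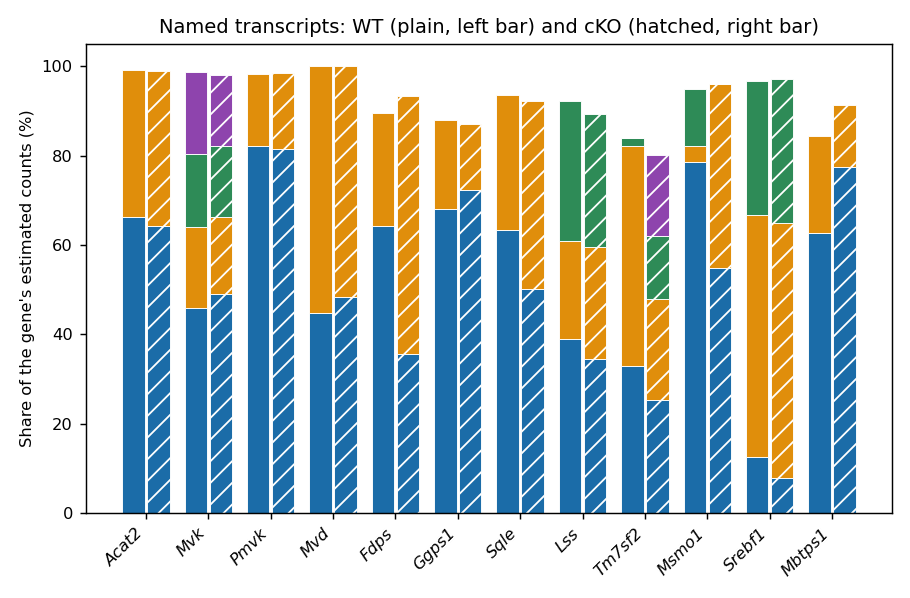
Share of the gene's estimated counts in percent (y axis) for the 12 members with more than 1 named transcript (x axis), WT plain at left and cKO hatched at right; segments run from the lowest transcript number at the bottom, and colours compare only within a gene. The bottom segment of Fdps shrinks from 64.4% to 35.6% and that of Msmo1 from 78.6% to 54.9%, while those of Acat2 and Pmvk are alike.

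Some members share exons with a gene on the opposite strand, and how the counting treated strand is unknown here, so reads of the 2 genes may not be separated. The widest such overlap with a well expressed gene was between Fdft1 and Ctsb, over 18.3% of the exonic bases of Fdft1, and Ctsb had 18179 counts in WT and 25538 in cKO, 324% and 442% of those of Fdft1. Ggps1 shared 5.44% with Arid4b, Npc1 4.52% with Rmc1, Cyp51 3.76% with Akap9 and Srebf1 1.93% with Rai1. How much these overlaps move the ratios was not measured.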

How the data were processed

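Whole spinal cord RNA was sequenced in 1 WT and 1 cKO library. Trizol extraction and a VAHTS mRNA-seq kit are named per the labels' protocols. CASAVA, Bowtie2 2.3.2 and GRCm38.p6 appear, without roles, per the submitters' processing notes. Neither the counting tool, the annotation release nor the strand handling is stated (not given in the sources used here). Per the file headers, estimated counts, TPM and FPKM per gene and transcript were deposited by the authors. In 98.8% of transcripts with 1 to 50 counts in each library, the count was a constant times FPKM times length, rounded up to a whole number within 0.1. For genes with 1 transcript and 1 to 10 counts this product lay within 0.2 of an even number in 36.1% (WT) and 34.3% (cKO) of cases and of an odd number in 17.7% and 18.7%. Even numbers were thus the more frequent, though many products lay near neither. That a fragment equals 2 deposited counts was assumed on this basis, and intervals used fragments.

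Counts were scaled with TMM factors (edgeR 4.0.16 in R 4.3.3; 1.000621 for WT and 0.99938 for cKO) to CPM, and log2 ratios of cKO over WT were taken with no pseudocount. A count of 0 was set to 3 fragments. No test was run, since a single library on each side gives no residual degrees of freedom. The code for ratios and intervals was run on simulated fragments drawn by the counting model that the intervals assume. That run checks the code and cannot show whether the model holds for these libraries. Python 3.11.15, pandas 2.3.3 and scipy 1.17.1 were used. Transcript names and overlaps come from GENCODE M21, on the build of the files. All 31 members are named, with their transcripts of at least 10% of a gene's counts; of the other sterol genes, those past the size rule and the 3 of highest TPM, some of which are not reported here. Members, lists and rules were chosen with earlier results of these data known. Alternatives covered scaling, unit, filter, interval and transcript.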

Additional observations from a re-analysis of the deposited data

How the results depend on the processing

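Other scalings (deposited totals, upper quartile, RLE, totals without mitochondrial genes), other filters on low values, and intervals on counts as deposited left all 31 member ratios inside their counting intervals and the number of members lower by the 1.5-fold rule at 3. On TPM with a pseudocount of 0.1 or 1, 4 members lay outside their interval (Hmgcs1, Ggps1, Cyp51 and Msmo1), and on FPKM 3 did (Fdps, Msmo1 and Mbtps1); the number lower was then 4, with Msmo1 added. On FPKM the median of the SREBP control genes was -0.034 in place of 0.05. With only the most abundant transcript of each gene, 6 members were lower by the rule, Fdps (-1.03), Msmo1 (-0.99) and Tm7sf2 (-1.21) being added, and 6 ratios lay outside their interval. The sign changed in some setting for 3 members, Ggps1, Mbtps1 and Soat1, all near equality. The number of members higher by the rule was 0 in every setting run. The 1.5-fold shares over all genes were 2.10% and 1.20% at 20 CPM or more. No paired analysis was possible because each group has 1 library. Leaving out a library was not possible for the same reason. Depth limited few comparisons, since 28 members had log2 intervals narrower than 0.3, but differences between animals were not measured.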
